A study of Homo sapiens with 9 samples.

Results

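Transcripts of solute carriers, the SLC genes that encode membrane transporters, were examined in HepG2 cells given vehicle, the thyroid hormone triiodothyronine (T3) or its synthetic analog GC-1. All probe sets annotated with 1 gene symbol beginning with SLC and a digit were taken, apart from 15 genes kept out by name (among them glucose, thyroid hormone, iron and bile acid transporters). This gave 334 probe sets of 224 genes, out of 22215 probe sets and 11963 named genes tested in all. HepG2 is an established human hepatoma line. The cells were kept in medium with serum depleted of thyroid hormone and exposed for 24 h to vehicle, to 10 nM T3 or to 10 nM GC-1, with 3 arrays per group and 9 in all. GC-1, or sobetirome, carries alkyl groups where T3 has iodine and favours the beta form of the thyroid hormone receptor. All results come from 1 tumour line at 1 dose and 1 time.

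Solute carriers move amino acids, sugars, metal ions, vitamins, organic ions and other solutes across the plasma membrane, mitochondria and the secretory pathway, mostly driven by ion gradients or by exchange. Families are numbered by sequence, and members of a family can differ in substrate. In hepatocytes they take up glutamine and other amino acids from blood, supply the urea cycle, release drugs and metals into bile, and exchange metabolites between cytosol and mitochondria. Thyroid hormone acts by binding receptors that sit on DNA and recruit coactivators, and the liver is among its main target organs. The 224 genes were sorted into 18 substrate classes, by family or, where a family was split, by gene. The classes include genes that are not themselves transporters and genes of unclear substrate or recent name.

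Signals are on a log2 scale as deposited, so a difference of 1 is a doubling, and levels of different probe sets were not compared. Of the 224 genes, 211 had a mean of at least 5 on that scale over the 9 arrays and 13 lay below it, and no gene was removed by a filter. The hepatocyte markers measured (7 of 8 listed) averaged 13.76 to 13.80 on vehicle arrays, 13.86 to 13.89 on T3 arrays and 13.83 to 13.87 on GC-1 arrays. Of the 7, APOB alone passed the test, with T3. The 10 measured markers of other cells averaged 6.31 to 6.48 on all arrays, and none passed in either ligand comparison. Their group means spread widely, from 4.83 (CDH5, vehicle) to 9.19 (COL1A1, vehicle). Detection was not given, so no marker can be placed at 0, and the part of these markers in the results below was not tested. The T3 arrays differed among themselves. T3 replicate 3 had an estimated array weight of 0.30, against 0.78 to 1.71 for the other 8 arrays. By interquartile range T3 replicates 1 and 2 stood apart instead, at 2.99 and 2.97 log2 units, while T3 replicate 3 (2.88) lay with the vehicle and GC-1 arrays (2.83 to 2.88). Nothing in the labels states that the arrays of a group are separate cultures. The p-values then reflect the spread between arrays alone, which may be technical.

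With T3, 18 of 224 solute carrier genes changed, with 12 higher and 6 lower. That is 8.04% of them at an adjusted p below 0.05 by limma. Among all genes tested the share was 6.22%, with 4.51% higher and 1.71% lower. With GC-1, 9 of 224 changed, 6 higher and 3 lower, or 4.02%, beside 3.26% of all genes (2.1% higher, 1.16% lower). Both shares were near the background. At an unadjusted p below 0.05 there were 55 genes with T3 and 43 with GC-1, beside 22.4% and 17% of all genes. The median difference over the 224 genes was -0.03 log2 units with T3 and 0.02 with GC-1, beside -0.02 and near zero over all genes. Both ligands changed 7 genes in the same direction. SLC1A2, SLC30A10, SLC38A3, SLC23A2 and SLC47A1 rose, and SLC1A4 and SLC12A2 fell. T3 alone passed the test in 11 genes and GC-1 alone in 2, and no gene was called in opposite directions. The comparisons share the 3 vehicle arrays. Among all genes, 2.53% were called the same way with both ligands.

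**Figure D1:**
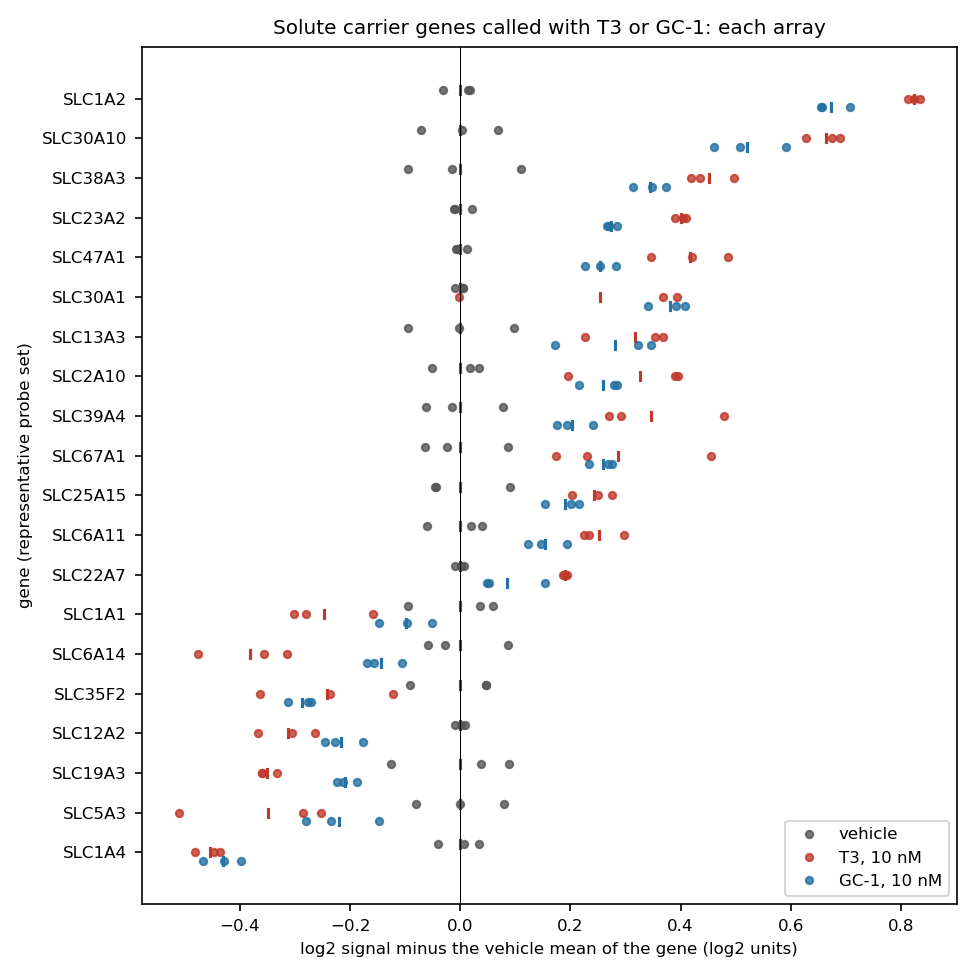
Log2 signal of the 20 called solute carrier genes on each array, minus the gene's vehicle mean (x axis, log2 units), with 1 gene per row, points for arrays and short bars for group means. SLC1A2 and SLC30A10 lie farthest to the right, SLC1A4 farthest to the left, and 1 T3 point of SLC30A1 lies among its vehicle points.

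Of the 18 genes called with T3, 10 were called in each of the 9 fits that left out 1 array, and 4 of the 9 called with GC-1. The number called with T3 ran from 12 (without vehicle replicate 3) to 20 (without T3 replicate 2), against 18. The number called with GC-1 was 5, 4 and 5 without vehicle replicate 1, 2 or 3, and 4, 5 and 5 without GC-1 replicate 1, 2 or 3. It was 20 without T3 replicate 3, an array that counts toward the common residual spread. Over all 22215 probe sets, GC-1 calls in that fit went from 403 higher and 219 lower to 602 higher and 670 lower. With a block for replicate number, 13 of the 18 T3 calls and 5 of the 9 GC-1 calls remained. Lost with T3 were SLC13A3, SLC1A1, SLC22A7, SLC25A15 and SLC67A1 (adjusted p in limma = 0.0583, 0.0899, 0.0984, 0.0619 and 0.0858). Lost with GC-1 were SLC12A2, SLC30A1, SLC35F2 and SLC47A1 (0.111, 0.0769, 0.0796 and 0.0585). These losses are not repeated below. Over all probe sets the block fit called 602 higher and 171 lower with T3, and 264 and 83 with GC-1. The balance of directions with T3 was 11 higher and 9 lower after quantile normalization and 13 higher and 18 lower with the array interquartile range as a covariate. With T3 replicates 1 and 2 left out it was 9 higher and 16 lower, and the lone T3 array was taken to be as variable as the other groups. Over all probe sets the balance moved too, from 888 higher and 334 lower to 816 and 438, 932 and 1152, and 850 and 980 in these 3 fits. All 3 T3 arrays lay above all 3 vehicle arrays in 29 genes (12.9%, beside 13.6% of all genes) and below them in 35 (15.6%, beside 13.3%). For GC-1 the counts were 38 above (17%, beside 12%) and 31 below (13.8%, beside 17.3%).

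Of the 20 called genes, 14 had a promoter window in RefSeq (GRCh38.p14), 250 bases before to 50 after a transcript start. The half-site AGGTCA, the letters that thyroid hormone receptors and related nuclear receptors are known to bind, was searched on both strands. It occurred in 13.8% of 35116 windows of all genes, in 12.6% of 247 windows of the solute carriers, and in 3 of 17 windows of the called ones. Those 3 belong to SLC22A7 and SLC67A1, and the pair of SLC67A1 windows overlap and hold the same site. A direct repeat of the half-site with 4 bases between was found on either strand in 7 windows of all genes and in 0 of the 247. These windows are short and say nothing about sites elsewhere. The 250 bases upstream of the start are shown for SLC30A10 and SLC30A1, metal exporters of the same family that rose with GC-1, and for SLC22A7, which holds a half-site. They are written 5′ to 3′ on the gene's strand, with any half-site in capitals, and lie at chr1:219928558-219928807 (minus strand), chr1:211579162-211579411 (minus strand) and chr6:43298010-43298259 (plus strand).
SLC30A10: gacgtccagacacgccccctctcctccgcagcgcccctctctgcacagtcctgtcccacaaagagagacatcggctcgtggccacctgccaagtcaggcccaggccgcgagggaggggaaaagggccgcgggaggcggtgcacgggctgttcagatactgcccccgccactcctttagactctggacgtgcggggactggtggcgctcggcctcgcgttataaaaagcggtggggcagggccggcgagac
SLC30A1: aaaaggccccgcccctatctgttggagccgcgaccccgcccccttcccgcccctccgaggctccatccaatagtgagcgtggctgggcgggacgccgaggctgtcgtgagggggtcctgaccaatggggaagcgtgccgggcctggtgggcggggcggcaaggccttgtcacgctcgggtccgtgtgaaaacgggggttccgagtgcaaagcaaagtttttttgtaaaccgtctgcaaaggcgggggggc
SLC22A7: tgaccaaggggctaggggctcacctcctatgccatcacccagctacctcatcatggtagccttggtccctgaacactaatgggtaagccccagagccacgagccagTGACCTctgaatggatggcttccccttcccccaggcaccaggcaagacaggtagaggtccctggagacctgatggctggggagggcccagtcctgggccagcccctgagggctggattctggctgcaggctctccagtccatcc
In SLC22A7 the half-site reads TGACCT on this strand and begins at position -144, counted from -1 for the base before the start. The windows of SLC30A10 and SLC30A1 do not hold these letters. SLC30A10 has another annotated start, whose upstream bases (chr1:219959099-219959348, minus strand) are not shown and hold no half-site either.

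Amino acid and peptide transporters were the largest class, with 36 genes. With T3, 2 rose and 3 fell (median -0.07 log2 units), and with GC-1, 2 rose and 1 fell (median -0.02). That was 13.9% and 8.33% of the class, beside 6.22% and 3.26% of all genes. These shares of all genes are the background for the class counts below. At an unadjusted p below 0.05 that background was 22.4% with T3 and 17% with GC-1. SLC1A2 is the high-affinity glutamate transporter EAAT2. Its log2 signal was 7.28, 7.33 and 7.33 on the vehicle arrays, 8.14, 8.13 and 8.15 on the T3 arrays, and 7.97, 7.97 and 8.02 on the GC-1 arrays. The 3 groups did not overlap, with T3 highest. In this probe set, the brightest of 3, SLC1A2 rose 1.77-fold with T3 (log2 0.82 ± 0.05 SE, n = 3 per group, adjusted p = 2e-06 in limma) and 1.59-fold with GC-1 (log2 0.67 ± 0.05, adjusted p = 1.37e-05). Averaged over its 3 probe sets the differences were 0.22 with T3 (adjusted p = 0.0317) and 0.22 with GC-1 (adjusted p = 0.0486). SLC38A3, the sodium-coupled glutamine transporter SNAT3, lay at 7.11, 7.19 and 7.31 with vehicle, at 7.62, 7.70 and 7.64 with T3 and at 7.57, 7.55 and 7.51 with GC-1. Both ligand groups lay above vehicle. It rose 1.37-fold with T3 (log2 0.45 ± 0.06, adjusted p = 0.00108) and 1.27-fold with GC-1 (log2 0.34 ± 0.06, adjusted p = 0.01). The GC-1 call was lost when vehicle replicate 1 or 2 or GC-1 replicate 1 was left out (adjusted p = 0.0505, 0.0506 and 0.0528).

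SLC1A4, the exchanger ASCT1 for alanine, serine and cysteine, fell. Its signal was 9.19, 9.16 and 9.11 with vehicle, 8.70, 8.72 and 8.67 with T3 and 8.69, 8.75 and 8.72 with GC-1, so the ligand groups overlapped each other and lay below vehicle. The fall was 1.37-fold with T3 (adjusted p = 0.000198 in limma) and 1.35-fold with GC-1 (log2 -0.43 ± 0.05, adjusted p = 0.000436). SLC6A14, which takes up neutral and cationic amino acids, read 9.94, 9.82 and 9.79 with vehicle, 9.54, 9.49 and 9.37 with T3 and 9.68, 9.69 and 9.74 with GC-1. T3 arrays were lowest and GC-1 arrays lay between. It fell with T3 (log2 -0.38 ± 0.06, adjusted p = 0.00346), and its difference with GC-1 was -0.14 ± 0.06 (adjusted p = 0.266). SLC1A1, the glutamate transporter EAAT3, had a difference of -0.25 ± 0.06 with T3 (adjusted p = 0.04) and -0.10 with GC-1 (adjusted p = 0.48). That call was lost in 7 of the 9 fits without 1 array: without vehicle replicate 1 or 3 (adjusted p = 0.151 and 0.137), T3 replicate 1 or 3 (0.126 and 0.0734) or GC-1 replicate 1, 2 or 3 (0.0522, 0.0671 and 0.0573). Over the mean of its probe sets the T3 difference was 0.005, of the opposite sign (adjusted p = 0.973). The call was also lost after quantile normalization (adjusted p = 0.0846), with the trend and robust options of eBayes (0.0614), with the interquartile range as a covariate (0.106), in a fit of vehicle and T3 alone (0.0873) and without T3 replicates 1 and 2 together (0.0636).

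The other members of the SLC1 family, given whatever they showed, did not pass. SLC1A3 had differences of -0.04 with T3 and -0.02 with GC-1, SLC1A5 (the glutamine exchanger ASCT2) of -0.06 and -0.12, SLC1A6 of -0.05 and 0.10, and SLC1A7 of 0.12 and 0.18. Among the relatives of SLC38A3, SLC38A1 had -0.07 and -0.08, SLC38A2 0.02 and 0.13, and SLC38A4 0.02 and -0.05. SLC7A1, the cationic amino acid transporter CAT1, had -0.11 with each ligand.

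Metal and heme transporters counted 21 genes. With each ligand 2 rose and none fell, in limma. At an unadjusted p below 0.05 in either direction there were 6 genes with T3 and 4 with GC-1, beside 22.4% and 17% of all genes. The medians were -0.04 and 0.02. SLC30A10 exports manganese from hepatocytes. It lay at 8.46, 8.39 and 8.32 with vehicle, 9.08, 9.06 and 9.02 with T3 and 8.85, 8.90 and 8.98 with GC-1. The groups did not overlap, and T3 was highest. It rose 1.58-fold with T3 (log2 0.66 ± 0.06, n = 3 per group, adjusted p = 3.79e-05 in limma) and 1.43-fold with GC-1 (log2 0.52 ± 0.06, adjusted p = 0.000371).

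SLC30A1, the zinc exporter of the plasma membrane, read 9.64, 9.62 and 9.64 with vehicle, 10.00, 10.03 and 9.63 with T3 and 9.98, 10.04 and 10.03 with GC-1. T3 replicate 3 lay within the vehicle range, and the other 5 ligand arrays lay above it. SLC30A1 rose with GC-1 (log2 0.38 ± 0.09, adjusted p = 0.0478 in limma), while its difference with T3 was 0.25 ± 0.09 (adjusted p = 0.132). Without T3 replicate 3 the T3 difference was 0.38 (adjusted p = 0.00145). With the interquartile range as a covariate it was -0.01 (adjusted p = 0.95). The GC-1 call was lost without vehicle replicate 1, 2 or 3 (adjusted p = 0.14, 0.151 and 0.148) or GC-1 replicate 1, 2 or 3 (0.122, 0.163 and 0.135). SLC39A4, the zinc importer ZIP4, lay at 9.70, 9.57 and 9.61 with vehicle, 9.92, 9.90 and 10.11 with T3 and 9.87, 9.82 and 9.80 with GC-1. It rose 1.27-fold with T3 (log2 0.35 ± 0.06, adjusted p = 0.00949), and its GC-1 difference was 0.20 ± 0.06 (adjusted p = 0.142, and 0.0408 without T3 replicate 3). The other zinc transporters did not pass, among them SLC30A5 (0.01 with T3 and 0.04 with GC-1), SLC30A9 (0.14 and 0.06), SLC39A14 (-0.06 and -0.01), which also carries manganese and iron, and SLC39A6 (-0.21 and -0.16). The copper importer SLC31A1 had 0.02 and -0.03.

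Among 7 vitamin transporters, 1 rose and 1 fell with T3, and 1 rose with GC-1. SLC23A2, the ascorbate transporter SVCT2, read 9.20, 9.21 and 9.24 with vehicle, 9.61, 9.62 and 9.62 with T3 and 9.48, 9.49 and 9.50 with GC-1, in 3 groups that did not overlap. It rose 1.32-fold with T3 (log2 0.40 ± 0.04, n = 3 per group, adjusted p = 0.000291 in limma) and 1.21-fold with GC-1 (log2 0.27 ± 0.04, adjusted p = 0.00675). Averaged over its 3 probe sets, the differences were 0.16 (adjusted p = 0.0549) and 0.15 (adjusted p = 0.0865). SLC19A3, a thiamine transporter, read 6.05, 6.22 and 6.27 with vehicle, 5.82, 5.85 and 5.82 with T3 and 5.99, 5.95 and 5.97 with GC-1. Both ligand groups lay below vehicle, T3 lowest. It fell 1.28-fold with T3 (log2 -0.35 ± 0.06, adjusted p = 0.00498), and its GC-1 difference was -0.21 ± 0.06 (adjusted p = 0.0973, and 0.0417 without vehicle replicate 1). The other thiamine transporter, SLC19A2, had 0.01 and -0.02.

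Organic anion and cation transporters numbered 17, with 2 higher with T3 and 1 with GC-1. SLC47A1 is MATE1, which releases organic cations such as drugs in exchange for protons. It lay at 9.61, 9.59 and 9.58 with vehicle, 10.08, 10.01 and 9.94 with T3 and 9.85, 9.87 and 9.82 with GC-1. The groups did not overlap, and T3 was highest. It rose 1.34-fold with T3 (log2 0.42 ± 0.05, n = 3 per group, adjusted p = 0.000596 in limma) and 1.19-fold with GC-1 (log2 0.25 ± 0.05, adjusted p = 0.023). The GC-1 call was lost without vehicle replicate 1, 2 or 3 (adjusted p = 0.0812, 0.0911 and 0.0929) or GC-1 replicate 1, 2 or 3 (0.0829, 0.111 and 0.0669). SLC22A7, the organic anion transporter OAT2, differed by 0.19 ± 0.05 with T3 (adjusted p = 0.0436) and 0.08 with GC-1 (adjusted p = 0.435). Its T3 call was lost in all 9 fits without 1 array (adjusted p 0.0528 to 0.125, highest without vehicle replicate 3) and with trend and robust eBayes (adjusted p = 0.0803). It was lost as well with the interquartile range as a covariate (adjusted p = 0.111), in a fit of vehicle and T3 alone (0.0838), without T3 replicates 1 and 2 together (0.122) and over the mean of its probe sets (0.0631). Its relatives SLC22A4, SLC22A5 (the carnitine transporter OCTN2) and SLC22A6 had T3 differences of 0.10, 0.00 and -0.06. SLC22A11 had 0.16, SLC22A13 -0.15 and SLC22A17 -0.20. In SLC22A2, SLC22A8 and SLC22A14 the T3 differences were 0.00, -0.05 and -0.12. None of these relatives was called with T3.

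Sugar and inositol transporters, 14 genes, had 1 higher and 1 lower with T3 and none past the threshold with GC-1 in limma. At an unadjusted p under 0.05 there were 6 of the 14 with each ligand, beside 22.4% of all genes with T3 and 17% with GC-1. SLC2A10, the facilitative transporter GLUT10, read 9.40, 9.42 and 9.33 with vehicle, 9.78, 9.77 and 9.58 with T3 and 9.60, 9.67 and 9.66 with GC-1. All ligand arrays lay above vehicle, and T3 replicate 3 lay below the GC-1 arrays. SLC2A10 rose 1.25-fold with T3 (log2 0.33 ± 0.06, n = 3 per group, adjusted p = 0.0104). Its GC-1 difference was 0.26 ± 0.06 (adjusted p = 0.0515, and 0.01 without T3 replicate 3). That GC-1 difference was called in 9 of 18 alternatives, among them quantile normalization (adjusted p = 0.0182) and a fit of vehicle and GC-1 alone (0.0185). For this comparison the alternative without T3 replicates 1 and 2 together is that same fit, counted again among the 9. The T3 call was lost without vehicle replicate 3 (adjusted p = 0.0545), with the interquartile range as a covariate (adjusted p = 0.0894) and without T3 replicates 1 and 2 together (adjusted p = 0.106). The myo-inositol transporter SLC5A3, whose gene shares upstream exons with MRPS6, read 8.85, 8.93 and 8.77 with vehicle, 8.56, 8.59 and 8.34 with T3 and 8.61, 8.57 and 8.70 with GC-1. It fell 1.27-fold with T3 (log2 -0.35 ± 0.07, adjusted p = 0.0199), with a GC-1 difference of -0.22 ± 0.07 (adjusted p = 0.168, and 0.049 without T3 replicate 3). The T3 call was lost without vehicle replicate 1 (adjusted p = 0.07) or 2 (adjusted p = 0.0814). The urate and sugar transporter SLC2A9 had 0.19 with each ligand (adjusted p = 0.0512 and 0.0802).

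Of 14 cation-chloride and sodium-calcium carriers, 1 fell with each ligand. This was SLC12A2, the sodium-potassium-chloride cotransporter NKCC1, at 7.15, 7.16 and 7.16 with vehicle, 6.79, 6.85 and 6.89 with T3 and 6.98, 6.93 and 6.91 with GC-1. The groups did not overlap, and T3 was lowest. The fall was 1.24-fold with T3 (log2 -0.31 ± 0.05, n = 3 per group, adjusted p = 0.00332 in limma) and 1.16-fold with GC-1 (log2 -0.22 ± 0.05, adjusted p = 0.0386). The GC-1 call was lost without vehicle replicate 1, 2 or 3 (adjusted p = 0.12, 0.131 and 0.143), T3 replicate 2 (0.0543) or GC-1 replicate 1, 2 or 3 (0.0829, 0.152 and 0.143), and with trend and robust eBayes (0.0568). The potassium-chloride cotransporters SLC12A4 and SLC12A7 had 0.01 and 0.18 with T3. Of the 16 genes sorted under bicarbonate, protons and anions, none was called by limma with either ligand. An unadjusted p below 0.05 was found in 1 gene with each. That class was led by the sulfate transporter SLC26A2, sorted here and not in the phosphate and sulfate class. SLC26A2 lay at 7.43, 7.43 and 7.44 with vehicle, 7.31, 7.35 and 6.94 with T3 and 7.05, 7.08 and 7.11 with GC-1. All ligand arrays lay below vehicle, and T3 replicate 3 lay lowest. Its differences were -0.23 with T3 (adjusted p = 0.172) and -0.35 with GC-1 (adjusted p = 0.0713, and 0.0012 without T3 replicate 3). The GC-1 difference was called in 6 of 18 alternatives, among them the interquartile range covariate (adjusted p = 0.0312) and a fit of vehicle and GC-1 alone (0.00296). The alternative without T3 replicates 1 and 2 together is that same fit for GC-1, counted again among the 6. The T3 difference was -0.50, and called, both with the interquartile range as a covariate (adjusted p = 0.00306) and without T3 replicates 1 and 2 together (adjusted p = 0.00342).

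The 27 mitochondrial carriers had 1 gene higher with T3 and none past the threshold with GC-1 in limma, with medians of -0.03 and -0.01. At an unadjusted p under 0.05 there were 5 with T3 and 7 with GC-1, beside 22.4% and 17% of all genes. SLC25A15, which brings ornithine into mitochondria for the urea cycle, read 9.78, 9.64 and 9.64 with vehicle, 9.94, 9.96 and 9.89 with T3 and 9.84, 9.90 and 9.89 with GC-1. It rose 1.18-fold with T3 (log2 0.24 ± 0.05, n = 3 per group, adjusted p = 0.024), and its GC-1 difference was 0.19 ± 0.05 (adjusted p = 0.099). The T3 call was lost without vehicle replicate 2 or 3 (adjusted p = 0.0931 and 0.104) or T3 replicate 1 or 2 (0.0722 and 0.0639), and with the interquartile range as a covariate (adjusted p = 0.115). It was lost too in a fit of vehicle and T3 alone (adjusted p = 0.0672) and without T3 replicates 1 and 2 together (0.129). The citrate carrier SLC25A1 had 0.07 with T3 and 0.04 with GC-1, and the phosphate carrier SLC25A3 -0.03 and -0.01. The adenine nucleotide carriers SLC25A4 and SLC25A5 had 0.05 and 0.03 with T3, and the aspartate-glutamate carriers SLC25A12 and SLC25A13 had 0.02 and -0.09. SLC25A32 (-0.24 with T3 and -0.26 with GC-1), SLC25A17 (-0.21 and -0.24) and SLC25A24 (-0.23 and -0.17) read lower, without a call. All T3 arrays lay above all vehicle arrays in 2 of the 27 genes and below them in 6, beside 13.6% and 13.3% of all genes. For GC-1 the counts were 2 and 7, beside 12% and 17.3%.

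Each of the next classes had a call in 1 gene. SLC13A3, a sodium-coupled dicarboxylate transporter, was the 1 of 7 carboxylate transporters called with T3 (log2 0.32 ± 0.07, n = 3 per group, adjusted p = 0.023 in limma), and its GC-1 difference was 0.28 ± 0.07 (adjusted p = 0.0601). The T3 call was lost without vehicle replicate 2 or 3 (adjusted p = 0.0715 and 0.102) or T3 replicate 2 or 3 (0.0631 and 0.0529), over the mean of its probe sets (adjusted p = 0.254) and without T3 replicates 1 and 2 together (0.0543). SLC6A11, a transporter of the transmitter GABA, was the 1 of 13 neurotransmitter, taurine, creatine and betaine transporters called with T3 (log2 0.25 ± 0.05, adjusted p = 0.0142). That call was lost without vehicle replicate 1 (adjusted p = 0.0723), with the interquartile range as a covariate (0.0657) and without T3 replicates 1 and 2 together (0.0762). SLC67A1, earlier named SLC22A18, was the 1 of 7 genes of unclear substrate or recent name called with T3. It rose (log2 0.29 ± 0.07, adjusted p = 0.0453), a call lost in 8 of the 9 fits without 1 array (adjusted p 0.0582 to 0.162). The exception was the fit without T3 replicate 2. It was lost as well after quantile normalization (adjusted p = 0.075) and in a fit of vehicle and T3 alone (0.103). An antisense transcript overlaps SLC67A1, and its own probe set differed by -0.12 with T3 and 0.05 with GC-1. SLC35F2, of the family that includes nucleotide sugar transporters, was the 1 of 16 genes under nucleotide sugars and acetyl-CoA called with GC-1. It fell with GC-1 (log2 -0.29 ± 0.07, adjusted p = 0.0464) and differed by -0.24 ± 0.07 with T3 (adjusted p = 0.0634). Its GC-1 call was lost in 7 of the 9 fits without 1 array (adjusted p 0.0623 to 0.176), all but those without T3 replicate 1 or 3, and with the interquartile range as a covariate (0.0801).

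None was called in limma among 7 nucleoside and nucleobase, 7 fatty acid and choline, 6 phosphate and sulfate, 2 bile acid and steroid and 2 urea transporters, or among 5 SLC-named genes that are not transporters. At an unadjusted p under 0.05, the nucleoside class had 1 gene with each ligand, the fatty acid class 1 with each, the phosphate class 1 with GC-1, and the non-transporter set 1 with T3. The urea and bile acid classes had none. The lowest p of each class in the mean of both ligands belonged to SLC29A1 (the nucleoside transporter ENT1, -0.17 with T3 and -0.15 with GC-1), SLC27A3 (0.12 and 0.21), SLC20A2 (the phosphate transporter PiT2, -0.05 and 0.20), SLC10A2 (the ileal bile acid transporter, 0.09 and -0.06), SLC14A1 (the urea transporter UT-B, -0.10 and -0.14) and SLC2A4RG (a regulator of the gene for GLUT4, 0.12 and -0.04).

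**Figure D2:**
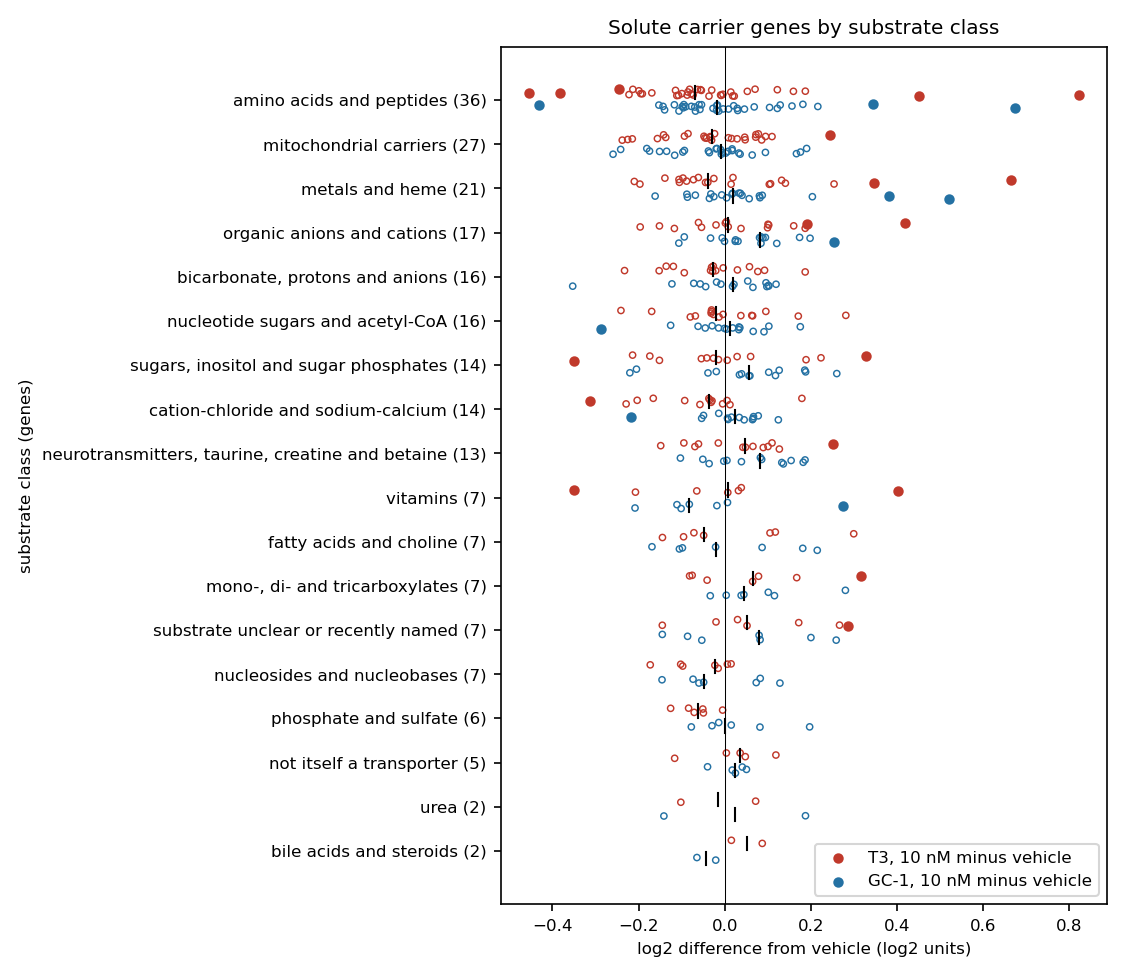
Log2 difference from vehicle (x axis, log2 units) of each of the 224 solute carrier genes, by substrate class with the number of genes in parentheses, for T3 (red) and GC-1 (blue). Filled points passed the test, open points did not, and black bars are class medians, which lie near zero in every class. Some open points lie farther from zero than some filled points.

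Carrier partners outside the family were counted from fixed lists. Of 4 measured subunits and regulators of the Na,K-ATPase, which builds the sodium gradient, 1 rose with GC-1 and none with T3. It was ATP1B1 (log2 0.23, adjusted p = 0.0324 in limma, and 0.18 with T3 at adjusted p = 0.0593). None of 8 organic anion transporters of the SLCO family and none of 4 chaperones and scaffolds passed with either ligand. Of 4 measured genes of the mitochondrial pyruvate carrier and the sideroflexins, 1 rose with both ligands. MPC1, a subunit of the pyruvate carrier, had 0.33 ± 0.05 with T3 (adjusted p = 0.00259) and 0.32 ± 0.05 with GC-1 (adjusted p = 0.0052), and its partner subunit MPC2 had 0.06 and 0.01.

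The ligands were set against each other, at equal dose and exposure, over all 224 genes. None was called in limma (0% of all genes were), and the lowest adjusted p was 0.176. An unadjusted p under 0.05 was found in 37 genes (16.5%), beside 14.1% of all genes. All GC-1 arrays lay above all T3 arrays in 28 genes (12.5%, beside 8% of all genes) and below them in 15 (6.7%, beside 10.9%). The 95% interval of GC-1 minus T3 lay within 1.5-fold in each of the 224 genes. The 5 genes with the smallest p all read higher with GC-1. SLC20A2 differed by 0.25 log2 units (interval 0.12 to 0.37, adjusted p = 0.176), SLC35F6 by 0.26 (0.13 to 0.39), SLC24A3, a sodium-calcium-potassium exchanger, by 0.31 (0.14 to 0.48), SLC6A14 by 0.24 (0.11 to 0.37) and SLC7A4 by 0.27 (0.11 to 0.43). In SLC20A2 the signal was 6.79, 6.74 and 6.84 with vehicle, 6.70, 6.83 and 6.70 with T3 and 6.99, 6.95 and 7.03 with GC-1. The T3 arrays overlapped vehicle and the GC-1 arrays lay above both.

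Among the 20 called genes, 18 had the smaller change with GC-1, the exceptions being SLC30A1 and SLC35F2. These genes were chosen by the T3 and GC-1 calls, with T3 calling more, so this count is a description. With the interquartile range as a covariate, GC-1 minus T3 turned sign in SLC2A10 (from -0.07 to 0.14) and SLC35F2 (from -0.05 to 0.12). In SLC1A1 it turned over the mean of the probe sets (from 0.15 to -0.09). The sign also turned in at least 1 alternative in SLC13A3 (from -0.04 to at most 0.08) and SLC67A1 (from -0.03 to at most 0.06). The same held for SLC25A15 (from -0.05 to at most 0.01) and SLC30A1 (from 0.13 to at lowest -0.001). The interval of GC-1 minus T3 did not include zero in 9 of the 20, without adjustment, among them SLC1A2 (-0.15, interval -0.25 to -0.05), SLC47A1 (-0.16, -0.27 to -0.05), SLC23A2 (-0.13, -0.22 to -0.03) and SLC30A10 (-0.14, -0.27 to -0.02). For SLC1A4 the difference was 0.02 (-0.08 to 0.13). Without T3 replicate 3, limma called 4 genes between the ligands. Of all 22215 probe sets, 157 were higher and 181 lower with GC-1 in that fit. SLC26A2 was lower with GC-1 (-0.25 for GC-1 minus T3, adjusted p = 0.0401), but its difference was 0.26 (adjusted p = 0.227) with the interquartile range as a covariate and 0.14 (adjusted p = 0.341) without T3 replicates 1 and 2 together. SLC31A2 (0.25, adjusted p = 0.0459), SLC45A2 (0.32, adjusted p = 0.0468) and SLC2A5 (0.27, adjusted p = 0.0489) were higher.

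**Figure D3:**
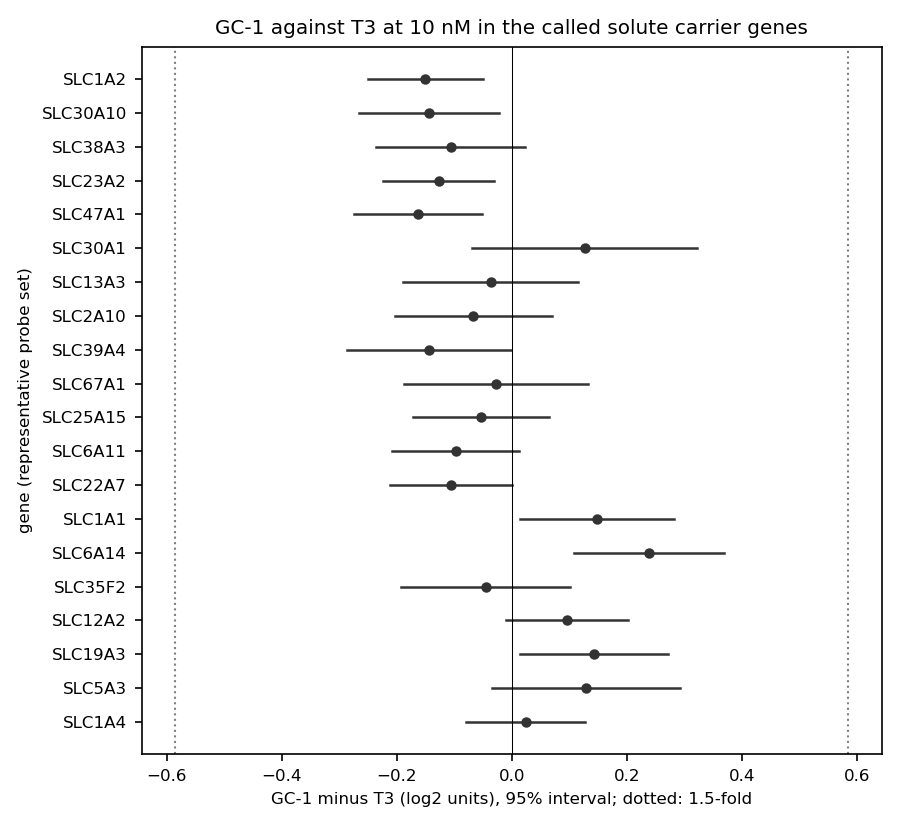
GC-1 minus T3 (x axis, log2 units) with its 95% interval for the 20 called solute carrier genes, with dotted lines at 1.5-fold in either direction. All 20 intervals lie between the dotted lines, and 9 do not reach zero.

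Of the 224 genes, 70 had more than 1 probe set, up to 7. Probe sets of SLC1A4 moved together, with T3 differences from -0.47 to -0.35 over 4 probe sets, all called in limma. SLC1A2 did not show this. Its called probe set had 0.82 with T3, while the other probe sets had -0.11 (adjusted p = 0.416) and -0.04 (adjusted p = 0.847). The rise of SLC1A2 therefore rests on 1 of 3 probe sets. SLC23A2 had 0.40 in the called probe set and -0.03 and 0.10 in the others. SLC1A1 had -0.25 and 0.26 in its pair of probe sets. SLC13A3, with 2 probe sets, had 0.32 in the called one and 0.13 over the mean of both, so the other did not rise. SLC5A3 fell in 2 of 3 probe sets (-0.35 and -0.31), with -0.25 in the other (adjusted p = 0.0534). SLC22A7 rose in 2 of 3 (0.19 and 0.26).

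In 3 further genes a probe set was called that was not the brightest of its gene. For SLC7A6, an exchanger of cationic for neutral amino acids, it had -0.37 with T3 (adjusted p = 0.012 in limma) and -0.34 with GC-1 (adjusted p = 0.0297), beside -0.20 and -0.10 in the brightest one. For SLC35D2, a transporter of nucleotide sugars, it had 0.29 with T3 (adjusted p = 0.00653), beside 0.17 (adjusted p = 0.0547). For SLC6A2, the noradrenaline transporter, 1 of 7 probe sets had -0.24 (adjusted p = 0.0492), while the brightest had 0.05. Counted by probe set, 26 of 334 were called with T3 (7.78%, beside 5.5% of all probe sets) and 12 with GC-1 (3.59%, beside 2.8%). By direction, 14 were higher with T3 (4.19%, beside 4% of all probe sets) and 12 lower (3.59%, beside 1.5%). The 12 include the 4 probe sets of SLC1A4. With GC-1, 6 were higher (1.8%, beside 1.81%) and 6 lower (1.8%, beside 0.986%).

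**Figure D4:**
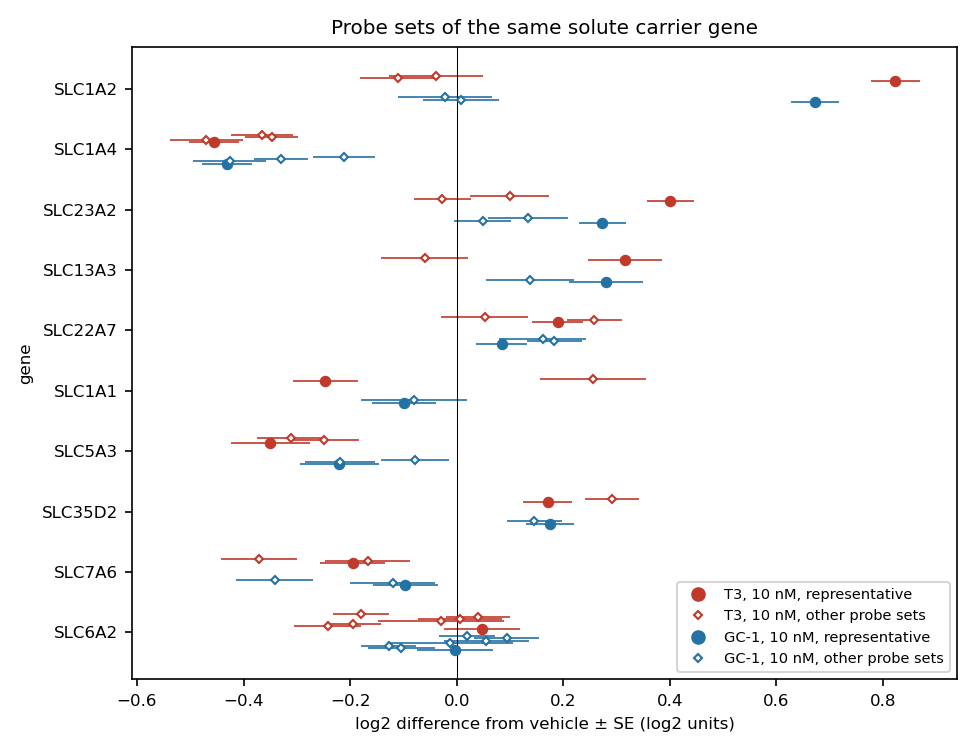
Log2 difference from vehicle (x axis, log2 units, bars are SE) of every probe set of 10 solute carrier genes, with filled circles for the brightest probe set of a gene and open diamonds for the others. The SLC1A4 points lie together, while SLC1A2 and SLC23A2 have 1 called point apart from the rest.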

How the data were processed

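HepG2 messenger RNA was measured on 9 Affymetrix arrays, 3 per group, and groups and replicate numbers were read from titles. The authors deposited log2 signals computed by RMA, per the submitters' processing notes, with no version given. The log base was inferred from the range of values. RMA compresses dim signals, so changes near the lower end are likely understated. Detection calls and scanner files were not used, so precision rests on the number of arrays.

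After 62 array controls were left out, a linear model (limma 3.58.1, lmFit and eBayes, under R 4.3.3) was fitted to all 22215 probe sets in 1 model of the 3 group means, with the code tested on simulated data. Tests were two-sided. The Benjamini-Hochberg adjustment ran over every probe set in a comparison, and an adjusted p under 0.05 counted as called. The annotation gave 1 symbol for 19064 probe sets. The brightest probe set, by mean signal on all 9 arrays, stood for a gene. A further 11 probe sets that name an SLC gene with others were not used.

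Named genes were called members (up to 15 in each direction and comparison), the gene with the smallest p in the mean of both ligands in each class, the 5 smallest p for GC-1 against T3, and genes whose probe sets disagreed in call. Relatives named beside them and genes called only without T3 replicate 3 were added after values were seen, as was SLC2A9. Classes of 9 family or gene names were assigned once the annotation was known. The members and lists were chosen with earlier results of these data known. Alternatives were normalization, a filter on dim probe sets (mean under 5), the variance model, array weights, a replicate block, the array interquartile range, gene means, samples in the fit and leaving out arrays.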

Additional observations from a re-analysis of the deposited data

Results flagged for a closer look

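SLC2A4RG, a regulator of the gene for the glucose transporter GLUT4 and not itself a transporter, had all 3 T3 arrays above and all 3 GC-1 arrays below the 3 vehicle arrays. GC-1 minus T3 was -0.16 log2 units (adjusted p = 0.227 in limma). This opposite placement was noted without a test of its own.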

How the results depend on the processing

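The count of solute carrier genes called in limma, 18 with T3, was 28 with the trend and robust options of eBayes and 31 with the array interquartile range as a covariate. Its other alternatives lay within 1.5 times. The count for GC-1, 9, was 18 with trend and robust, 23 with array weights and 16 in a fit of the vehicle and GC-1 arrays alone. Leaving out T3 replicates 1 and 2 together gives that same fit for this comparison, since a lone T3 array adds no residual spread. With the replicate block the GC-1 count was 5, beside 13 with T3 and 0 between the ligands. Same-numbered arrays did not deviate together (correlations of deviations -0.26 to 0.08), and not every array correlated best with its own number. Pairs of different number ran from -0.30 to 0.29. With 3 arrays per group these correlations cannot settle whether same-numbered arrays shared a culture or batch, which was not tested. Leaving out 1 array at a time gave 12 to 20 genes with T3, 4 to 20 with GC-1 and 0 to 4 for GC-1 against T3, the last above 0 only without T3 replicate 3. SLC1A1 with T3 was 0.005 over the mean of its probe sets, against -0.25. No other difference from vehicle that was called changed sign in these alternatives, while some uncalled ones did, such as SLC30A1 with T3. The cause of these shifts was not tested. Dim probe sets (13 of 224 genes) limit what could be detected.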
